A study of Homo sapiens with 2 samples.

Results

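The genes examined were 8 transcription factor genes that set or keep B-cell identity: PAX5, EBF1, IKZF1, IKZF3, SPI1, SPIB, POU2F2 and POU2AF1. Their members were the listed KMT2D peaks whose highest point lay in a fixed window around each gene, 2.08 Mb of hg19 in all. These windows held 112 of the 24824 listed peaks; comparisons below use the 24772 on the autosomes and X. The peaks came from 1 chromatin immunoprecipitation sequencing (ChIP-seq) library of OCI-LY7, a lymphoma cell line labelled GCB-DLBCL, the germinal-centre type of diffuse large B-cell lymphoma, with genotype wt. Cells were untreated apart from fixation for 10 min in 1% formaldehyde, and KMT2D was precipitated with an antibody to its N-terminus. An input library without antibody belongs to the series, and its values were not analysed here. With 1 ChIP library of 1 line there is no replicate spread and no test, the sequencing depth is unknown, and expression was not measured, so B-cell identity was not checked against marker RNA.

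KMT2D (MLL4) is a histone methyltransferase that marks enhancers by monomethylation of histone H3 at lysine 4, and lymphomas of germinal centre origin often carry inactivating mutations in its gene. PAX5 and EBF1 commit lymphoid progenitors to the B lineage, the ETS factors SPI1 (PU.1) and SPIB and the zinc finger proteins IKZF1 (Ikaros) and IKZF3 (Aiolos) act along that path, and POU2F2 (OCT2) with its coactivator POU2AF1 (OCA-B) acts on octamer sites of B-cell genes. Genes of this kind are commonly controlled by several distal enhancers as well as by their promoters. No hg19 annotation was used here, so a peak is assigned to a window and not to a promoter, an intron or a particular gene, and each window also holds flanking sequence. Window edges therefore enter every density below.

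KMT2D peaks were several times denser in these windows than along the chromosomes. Peak density was 53.8 peaks per Mb (exact Poisson 95% interval 44.3 to 64.8), against 8.44 over chromosomes 1 to 22 and X, a ratio of 6.38 (5.25 to 7.67). Measured against each window's own chromosome, 22.9 peaks would stand in these windows at the chromosome's mean density, and the ratio was 4.88 (4.02 to 5.88). The windows thus held 0.452% of the peaks in 0.0709% of the spans examined, and peaks covered 3.56% of their bases against 0.584% over all chromosomes. Segments of the same lengths on both sides of the windows together held 112 peaks, or 26.9 per Mb, so the neighbourhoods were also denser than the chromosomes. These intervals cover counting error over peaks of this list only. They take each listed peak as an independent event, although many lie close together, so they may be too narrow. The windows were drawn around genes, while chromosome means include long gene-poor stretches. Copy number in OCI-LY7 was not tested.

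All 8 windows had more peaks per Mb than the chromosome they lie on, and for 6 of them the interval of that ratio lay above 1. The order by density was SPIB (109.1 peaks per Mb), POU2AF1 (84.6), SPI1 (83.3), POU2F2 (53.3), PAX5 (51.6), IKZF1 (43.5), EBF1 (43.1) and IKZF3 (33.3). Every pair of neighbours in this order had overlapping intervals. SPIB, POU2AF1, SPI1 and POU2F2 were also the shortest windows, at 110 to 150 kb, against 210 to 620 kb for the rest. Whether window length set this order was not tested. When only peaks of height 26 or more were kept on every chromosome, the order below POU2F2 became IKZF1 (34.8), IKZF3 (33.3), PAX5 (32.3) and EBF1 (17.6). SPIB and IKZF3, the ends of the order and so chosen after their values were seen, differed 3.27 times (exact conditional 95% interval 1.19 to 9.81).

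**Figure D1:**
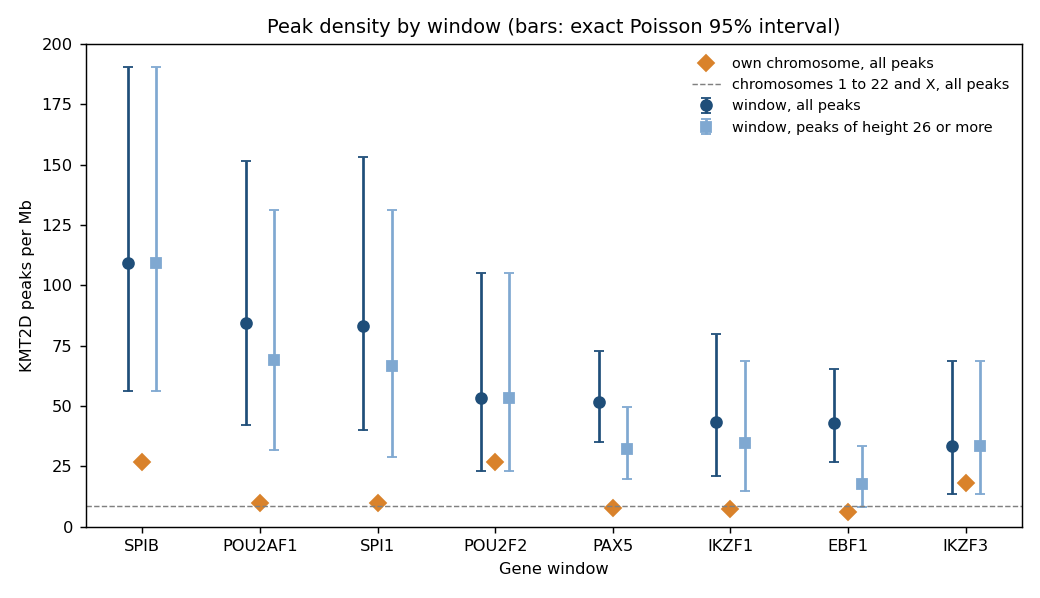
KMT2D peaks per Mb (vertical axis) in each gene window (horizontal axis), for all peaks (circles) and for peaks of height 26 or more (squares), with exact Poisson 95% intervals. Diamonds give the density of the window's own chromosome and the dashed line that of all chromosomes (8.44). Both count all peaks and so compare with the circles and not with the squares. The window circle lies above its diamond in all 8, while the intervals of POU2F2 and IKZF3 reach down to their chromosome's density.

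The peaks were dense but no taller than those of the list. Height is the whole number the authors list per peak, in units the file does not explain. The 112 peaks had a median height of 35 (95% interval 31 to 40), against 39 for the whole list, and ran from 18 to 192. Of them, 45 (40.2%, exact interval 31.0 to 49.9%) were taller than the median peak of their own chromosome, where the list as a whole gave 49.3%. Of them, 19 (17.0%, 10.5 to 25.2%) reached the upper quartile of their chromosome, against 25.5% of the list. EBF1 weighed on both shares, which without its window were 45.6% (35.0 to 56.4%) and 18.9% (11.4 to 28.5%). The median height without the EBF1 window was 39.5 (35 to 47). Tall peaks were about as frequent as elsewhere, since 5 of 112 (4.46%, 1.47 to 10.1%) had a height of 100 or more, against 4.13% of the list. Those 5 stood in 4 windows: PAX5 (192), SPI1 (149 and 101), IKZF3 (137) and POU2F2 (129).

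**Figure D2:**
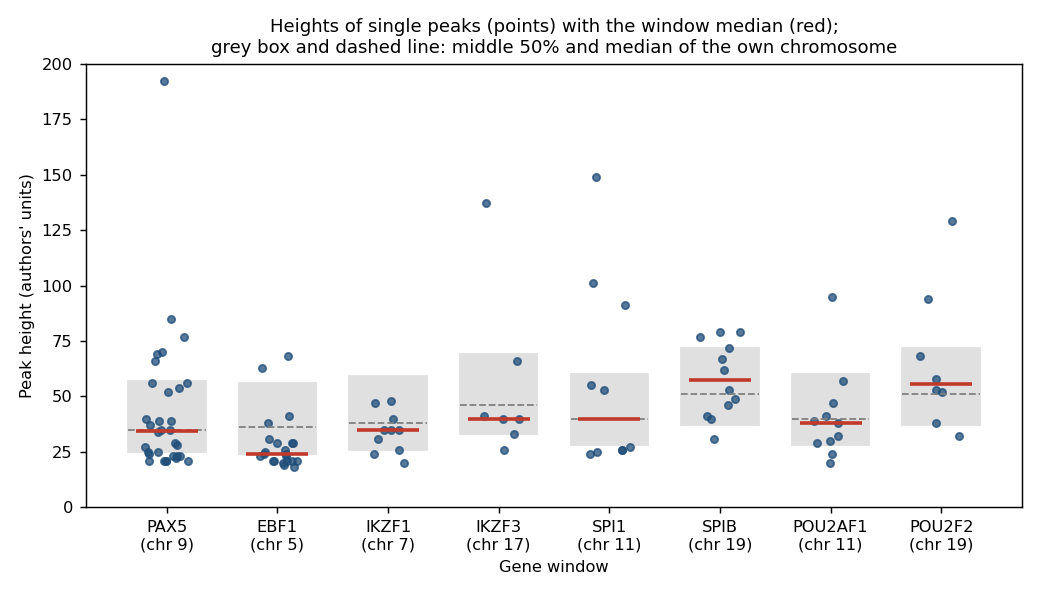
Height of every KMT2D peak (points, authors' units) by gene window, with the window median as a red bar. The grey box and dashed line give the middle 50% and the median of the peaks on the same chromosome, whose lowest listed height ranged from 16 on chromosome 5 to 26 on chromosome 19. The EBF1 median of 24 lies at the foot of its box, and SPIB and POU2F2 (57.5 and 55.5) lie above their chromosome's median of 51.

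PAX5, the paired-domain factor that holds B cells to their lineage, had the tallest peak of all 8 windows. Its window (chromosome 9, 36780000 to 37400000) held 32 peaks, 51.6 per Mb (35.3 to 72.9), which was 6.70 times the rest of chromosome 9 (4.56 to 9.51). Among peaks of height 26 or more, which made up 79.9% of the list, it held 20, or 32.3 per Mb (19.7 to 49.8). This was 5.62 times the rest of the chromosome (3.42 to 8.74). The flanking segments of the same length held 13 and 17 peaks. Of 4877 windows of that length laid end to end over all chromosomes, 1.64% held at least as many peaks, as did 1.76% of those on chromosome 9. The tallest peak, at 37026238 to 37028246, had a height of 192, rank 17 in the list, where the tallest peak of chromosome 9 reached 200. It was 2.26 times as tall as the next PAX5 peak (85) and was the only one of the 112 listed at minus infinity for the authors' significance value, as were 30 peaks (0.121%) of the list.

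That peak belonged to a dense block. Peaks near each other were stitched (the distance is given with the processing steps), which gave a cluster of 9 peaks at 37025787 to 37037996, where peaks covered 71.2% of 12.2 kb. Beside the peak of 192 it held peaks of 70, 56, 52 and 37 and 4 low ones of 21 to 23. It also held the widest PAX5 peak, 2144 bp at 37035577 to 37037721 with a height of 52. Gaps inside it were short: 5 of its peaks formed a run of 4978 bp and 3 a run of 4208 bp in which neighbours stood under 500 bp apart. Before the block stood 4 peaks. The first, a lone peak of height 25, was followed by 129 kb without a listed peak, from 36865105 to 36993684. The other 3 formed a cluster at 36993684 to 37000221 with heights of 66, 23 and 35.

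A second concentration lay at the far edge of the PAX5 window. The cluster with the most peaks, 17 over 53.7 kb at 37369380 to 37423052, had 8 peaks inside the window, of height 21 to 85, and 9 beyond it, of which the tallest reached 131. In a GRCh38 gene table, used for names and gene order only, PAX5 stands between MELK on one side and ZCCHC7 and GRHPR on the other. To which of these genes the edge cluster belongs was not analysed here.

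EBF1, the early B-cell factor that acts with PAX5, had many peaks and mostly low ones. Its window (chromosome 5, 158070000 to 158580000) held 22 peaks, 43.1 per Mb (27.03 to 65.3), which was 6.96 times the rest of chromosome 5 (4.35 to 10.6). The flanks held 7 and 6. At least 22 peaks stood in 3.22% of all windows of that length and in 2.26% of those on chromosome 5. Heights ran from 18 to 68 with a median of 24, and 4 of 22 peaks passed the chromosome median of 36. At the minimum height of 26, 9 of the 22 remained, against 79.9% of the list. Below that height stood 13 of the 22, against 30.2% of all peaks on chromosome 5. The EBF1 window then had the lowest density of the 8, 17.6 per Mb (8.07 to 33.5), still 4.05 times the rest of its chromosome (1.84 to 7.73).

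The EBF1 peaks were scattered as 6 clusters and 4 lone peaks. The tallest, of height 68 and 706 bp wide, lay at 158239212 to 158239918 in a cluster of 4 whose other peaks reached 21 to 29. The widest, 2214 bp with a height of 63, lay at 158525971 to 158528185 in the largest cluster, 5 peaks at 158521987 to 158534141. These were the only EBF1 peaks above 41.

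**Figure D3:**
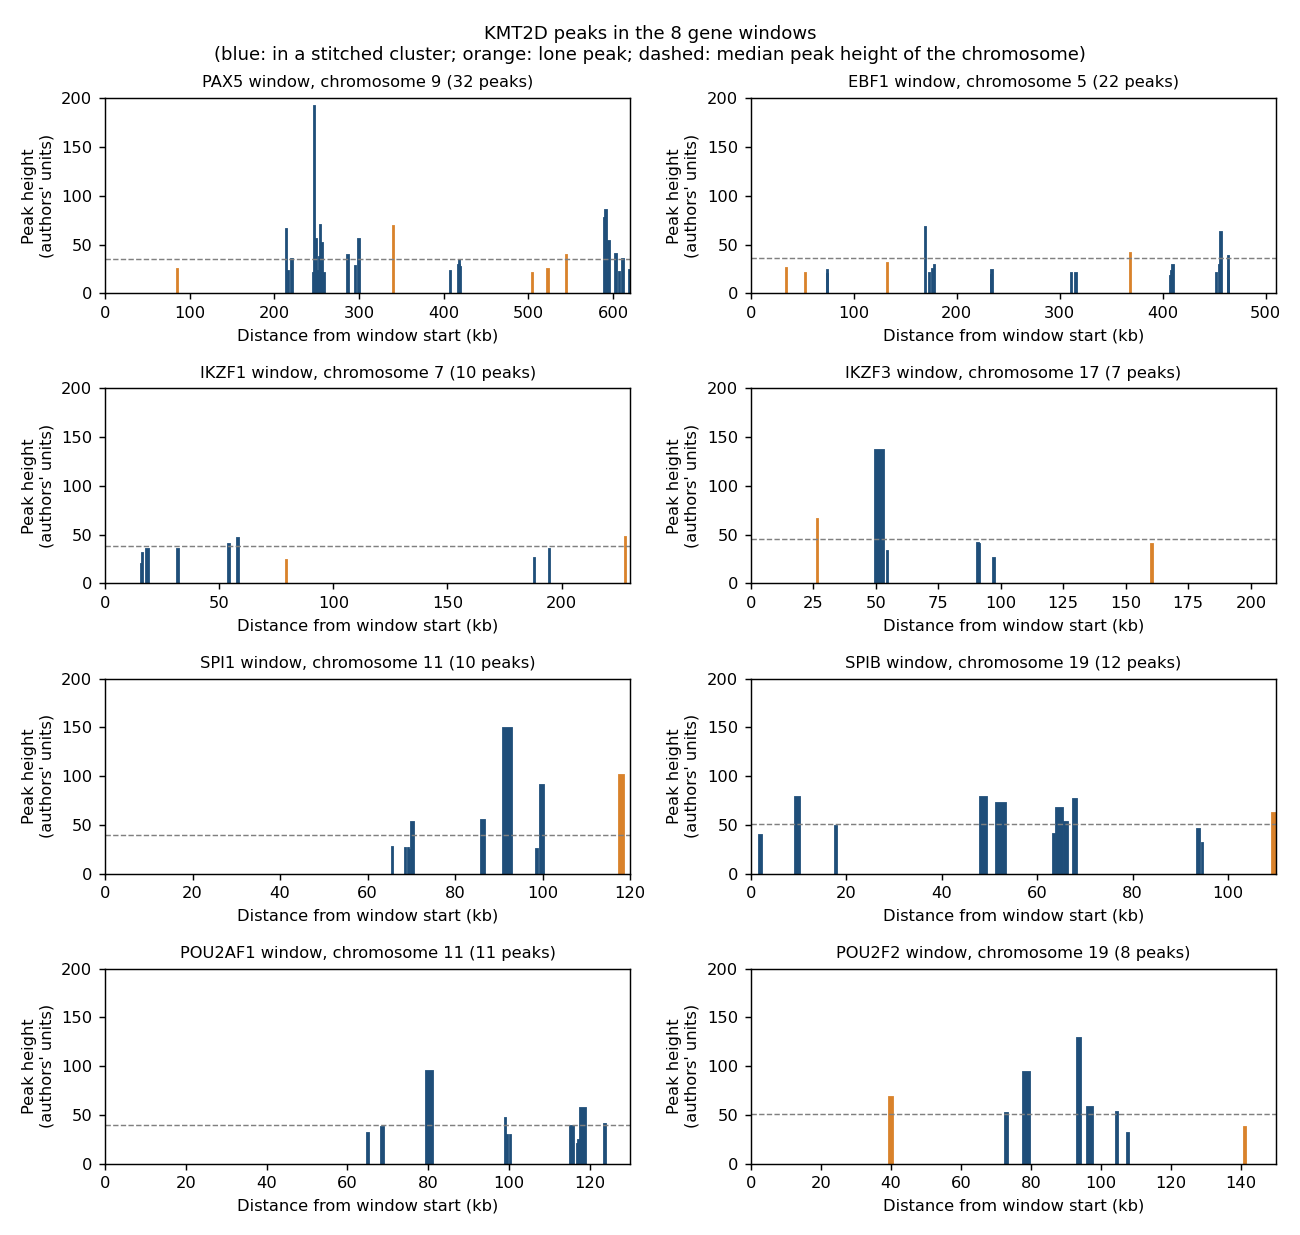
Each bar is 1 KMT2D peak, placed by its distance from the window start (kb) and drawn to its height (authors' units); narrow peaks are drawn wider than they are so that they can be seen. Blue bars belong to stitched clusters, orange bars are lone peaks and the dashed line is the median peak height of the chromosome. The PAX5 panel shows the block around the peak of 192, and the EBF1 and IKZF1 panels hold no peak above 68 and 48.

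In the Ikaros family pair, IKZF1 had peaks of 20 to 48 in height and IKZF3 had 1 tall, wide peak. IKZF1, mutated or deleted in many acute lymphoblastic leukaemias, had 10 peaks in its window (chromosome 7, 50290000 to 50520000), 43.5 per Mb (20.8 to 80.0), or 6.05 times the rest of chromosome 7 (2.89 to 11.2), with 4 and 1 peaks in the flanks. At least as many stood in 4.57% of all windows of 230 kb and in 3.48% of those on chromosome 7. In order along the chromosome the heights were 20, 31, 35, 35, 40, 47, 24, 26, 35 and 48. Of these, 0 of 10 reached the chromosome's upper quartile of 59. The tallest was a lone peak of 559 bp at 50517681 to 50518240, near the window's end, and the next, of 47, lay at 50347936 to 50348830. The widest, 982 bp at 50308096 to 50309078, belonged to the largest cluster, 4 peaks at 50305835 to 50322196. A stretch of 108 kb from 50369723 to 50477760 had no listed peak.

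IKZF3, the family member expressed from later B-cell stages, had the fewest peaks of the 8 windows. Its window (chromosome 17, 37860000 to 38070000) held 7 peaks of heights 66, 137, 33, 41, 40, 26 and 40. The peak of 137, at 37909840 to 37913323, was 3483 bp wide, the widest of the 112, and made up 62.5% of all peak bases in the window. Its highest point stood 77.0% of the way from start to end. It shared a cluster of 2 with a peak of 33, while the largest cluster, 3 peaks at 37950569 to 37957172, reached 41. Density was 33.3 per Mb (13.4 to 68.7), and the ratio to the rest of chromosome 17 was 1.84 (0.740 to 3.81), so a difference from that peak-rich chromosome was not resolved. At least 7 peaks stood in 7.59% of all windows of 210 kb and in 21.0% of those on chromosome 17, and the flanks held 5 and 10. GRB7 and ZPBP2 are the nearest protein-coding neighbours of IKZF3 in the gene table. The densities of IKZF1 and IKZF3 had a ratio of 1.30 (0.448 to 4.04).

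The ETS pair and POU2AF1 had the highest peak densities, in the windows that were also the shortest (SPIB 110 kb, SPI1 120 kb and POU2AF1 130 kb). SPI1, which encodes PU.1, a factor of myeloid and B cells, had 10 peaks in its window (chromosome 11, 47330000 to 47450000), 83.3 per Mb (39.96 to 153.3), or 8.68 times the rest of chromosome 11 (4.15 to 16.01). At least as many stood in 1.32% of all windows of 120 kb and in 2.14% of those on chromosome 11. All 10 lay in 53.0 kb at the far side of the window, and its first 65.5 kb held none. The heights in order were 27, 26, 26, 24, 53, 55, 149, 25, 91 and 101. The first 5, of 24 to 53, made up the largest cluster, at 47395484 to 47400510, and the 3 tallest came after it. The peak of 149, at 47420977 to 47423042, was also the widest, at 2065 bp, and ranked 124 in the list. The peak of 101, at 47447466 to 47448519, was a lone peak next to the window's end. Beyond that end 124 kb passed before the next listed peak, and the flanks held 8 peaks before and 0 after. In the gene table MYBPC3 stands before SPI1, and SLC39A13 and PSMC3 after it. Which gene the 3 tallest peaks belong to was not analysed here.

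SPIB, the ETS factor closest to PU.1 in lymphoid cells, had the highest density. Its window (chromosome 19, 50870000 to 50980000) held 12 peaks, 109.1 per Mb (56.4 to 190.6), which was 4.11 times the rest of chromosome 19 (2.12 to 7.20), itself rich in peaks. At least 12 stood in 0.530% of all windows of 110 kb and in 2.42% of those on chromosome 19, and the flanks held 8 and 3. In the gene table NR1H2 and POLD1 stand before SPIB, and MYBPC2 and GARIN5A after it. To which of these genes the peaks in the window belong was not analysed here. Peaks covered 9.28% of its bases, the highest share of the 8. Heights ran from 31 to 79 with a median of 57.5, and 7 of 12 passed the chromosome median of 51. A pair of peaks shared the highest value of 79, at 50879296 to 50880236 and at 50918016 to 50919509. The second of them opened the largest cluster, 6 peaks at 50918016 to 50938257 with heights of 41 to 79, which also held the widest peak, 1972 bp at 50921461 to 50923433 with a height of 72. The SPIB and SPI1 densities had a ratio of 1.31 (0.518 to 3.38).

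The octamer partners lay in unlike surroundings. POU2AF1, the B-cell coactivator of octamer factors, had 11 peaks in its window (chromosome 11, 111170000 to 111300000), 84.6 per Mb (42.2 to 151.4), or 8.82 times the rest of chromosome 11 (4.39 to 15.8). At least as many stood in 1.15% of all windows of 130 kb and in 1.84% of those on chromosome 11, and the flanks held 2 and 3. All 11 lay in clusters, 3 in number, within 59.2 kb, and the first 64.9 kb of the window held none. The tallest, at 111249448 to 111251135, had a height of 95 and, at 1687 bp, was also the widest. The other 10 had heights of 20 to 57. The largest cluster, 5 peaks at 111285038 to 111294123, reached 57. POU2AF3 and BTG4 neighbour the gene in the table.

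POU2F2, which encodes OCT2, the octamer factor of B cells, had 8 peaks in its window (chromosome 19, 42540000 to 42690000), 53.3 per Mb (23.03 to 105.1). The ratio to the rest of chromosome 19 was 2.004 (0.864 to 3.96) and was not resolved from 1. At least 8 peaks stood in 3.53% of all windows of 150 kb and in 16.5% of those on chromosome 19, and both flanks held more, with 10 and 15. The heights in order were 68, 52, 94, 129, 58, 53, 32 and 38. Of the 8, 6 passed the chromosome median of 51. The tallest, at 42633149 to 42634414, stood in the largest cluster, 4 peaks at 42633149 to 42647960, and the widest, 1796 bp with a height of 94, lay at 42617919 to 42619715. Its peaks were broad and separate, with a median width of 1085.5 bp, 0 peaks of up to 200 bp (21.0% of the list) and no gap under 1612 bp. Chromosome 19 had no listed peak below a height of 26, and SPIB on it had a median width of 793 bp. Whether the widths at POU2F2 differ from those of its chromosome was not tested. POU2F2 and POU2AF1 densities had a ratio of 0.630 (0.220 to 1.72).

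Peaks in the 8 windows kept close company. Of 112, 95 (84.8%, 76.8 to 90.9%) lay in stitched clusters, where the list gave 63.4%, and 17 were alone. The median distance to the nearest neighbour was 1612 bp, against 4663 bp over the list. Higher density shortens these distances by itself, so both values restate the density in part. Neighbours under 500 bp away were found for 36 peaks (32.1%, 23.6 to 41.6%), which formed 14 runs. The list's share was 27.3%, inside that interval, so a difference was not resolved. Only the PAX5 window met a cluster of 10 or more, with 8 of its peaks (7.14% of the 112, against 5.29% of the list).

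Widths ran from 102 to 3483 bp, against 99 to 6670 bp over the list. The median was 461 bp (334 to 614 bp), against 609 bp for all peaks, and without the EBF1 window it was 566.5 bp (355 to 689 bp). Narrow peaks of up to 200 bp numbered 28 of 112 (exact interval 17.3 to 34.1%), against 21.0% of the list, and 12 of them were in the PAX5 window. Peaks over 2000 bp numbered 5 (4.46%, 1.47 to 10.1%), against 2.22%: 2 at PAX5 and 1 each at EBF1, IKZF3 and SPI1. Width and height rose together over the 112 peaks, with a Spearman correlation of 0.86, as a description of peaks from 1 library.

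**Figure D4:**
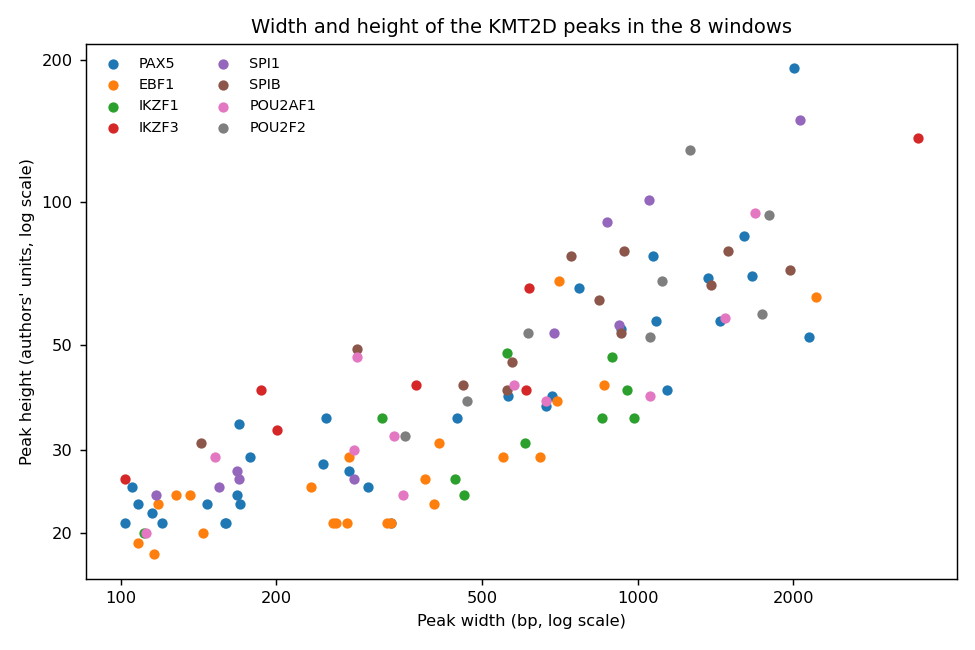
Width (bp) against height (authors' units) of the 112 KMT2D peaks, both on log scales, coloured by gene window. The wide and tall corner holds 1 peak each of PAX5 (192), SPI1 (149) and IKZF3 (137), and EBF1 fills the low part, with 2 of its 22 peaks above 41.

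Promoter sequence was looked at for letters linked to ETS, Ikaros, octamer and EBF factors. An E-box, which is not named for any of the 8 genes, was searched as well, and no PAX5 site was. RefSeq starts (GRCh38.p14) were matched for 5 of the 8 genes, PAX5, EBF1, IKZF1, SPIB and POU2F2, with 7 starts. The 250 bases before each start were searched on both strands for GGAAGT (the ETS core), TGGGAA (Ikaros), ATGCAAAT (the octamer), the EBF palindrome (TCCC and GGGA with any 2 bases between them) and CACCTG (an E-box). GGAAGT was found at EBF1, at POU2F2 and before the first listed start of IKZF1, and is held by 19.5% of all 35116 promoters in the table. TGGGAA was found at EBF1 and IKZF1 and is held by 20.9%. The other letters, held by 1.63% (octamer), 1.06% (EBF) and 17.5% (E-box), were found before 0 of the 7 starts. At least 1 of the 5 sequences was found at 3 of the 5 genes and is held by 47.8% of all promoters. These genes are counted by gene and the table by promoter, and IKZF1 has several starts, so the shares are not like for like. Because the table and the peaks are on different builds, no peak was placed on these sequences. The EBF1 and IKZF1 promoters (chromosome 5, minus strand, and the first listed start on chromosome 7, plus strand) are shown because each holds both sets of letters. They are read 5′ to 3′ on the gene's strand, ending at the base before the start, with matches to either strand in capitals.
EBF1: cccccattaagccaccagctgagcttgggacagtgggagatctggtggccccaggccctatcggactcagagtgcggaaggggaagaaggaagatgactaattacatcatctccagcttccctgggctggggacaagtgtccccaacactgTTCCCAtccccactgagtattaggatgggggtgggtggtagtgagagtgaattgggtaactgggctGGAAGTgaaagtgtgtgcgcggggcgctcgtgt
IKZF1: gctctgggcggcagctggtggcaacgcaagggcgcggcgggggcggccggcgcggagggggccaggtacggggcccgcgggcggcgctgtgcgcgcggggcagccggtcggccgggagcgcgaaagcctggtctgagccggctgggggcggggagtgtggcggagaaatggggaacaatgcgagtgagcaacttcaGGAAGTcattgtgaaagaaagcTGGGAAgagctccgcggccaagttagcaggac
In EBF1 the GGAAGT match begins 33 bases before the start and the TGGGAA match, on the opposite strand, 99 bases before it. In IKZF1 they begin 54 and 32 bases before it. A match of this length is a description of letters and not a bound site.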

How the data were processed

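One KMT2D ChIP-seq library of OCI-LY7 was described from 1 list of peaks with 11 columns and no header. The submitters' processing notes name CASAVA 1.8.2 and the build hg19. Not given in the sources used here are the aligner, the caller and its threshold, how the input entered, and whether positions count from 0 or 1. The authors deposited a whole-number signal per peak, read as peak height. They also deposited a positive score and a negative score that behaves like a log10 p-value, with none above -15 and called the significance value. The position of the highest point is deposited as a percent of peak width. These values rank peaks within the list only.

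Peaks whose highest point lay in 8 windows were taken. Genes, windows and lists were chosen with earlier results of these data known. Density divides peak number by window length or by the span from first to last peak of a chromosome. Same-length windows were tiled from each chromosome's first base. Peaks at most 12.5 kb apart were stitched. Intervals are exact Poisson, binomial or conditional and order-statistic intervals at 95%. They cover counting error only and take peaks as independent. Named peaks were the tallest, the widest and the largest cluster of each window, and all peaks where a window held 10 or fewer. Functions recovered planted clusters and intervals on simulated data. Alternatives were the highest-scoring 50% of peaks, a common minimum height of 26, merging of peaks under 500 bp apart, overlap in place of the highest point, covered bases, and stitching at 5 and 25 kb. Own-chromosome density and leaving out each window were added after seeing the data. So were the use of the height cut for the total peak number and of the score cut for the median width. Peak positions relative to genes, motifs under peaks and lists of other lineage genes were not analysed here, because no hg19 annotation or genome was used. Tools were Python 3.11.15 with scipy 1.17.1, numpy 2.4.6, matplotlib 3.10.9 and pandas 2.3.3.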

Additional observations from a re-analysis of the deposited data

How the results depend on the processing

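No paired analysis was possible because there was 1 ChIP library. Moved means outside the 95% interval of the main value, or, for peak numbers, a change of more than 1.5 times. Under the alternatives 33 values stayed and 17 moved, and the density ratio to all chromosomes stayed above 1 in each alternative run for it. Cutting by height or score removes low peaks and so lowers counts and raises medians by construction, and stitching over more distance cannot lower the share in clusters. Elsewhere the cause was not tested. The highest-scoring 50% of the list left 46 of the 112 peaks (41.1%), with a ratio to all chromosomes of 5.24 (main value 6.38). Their median height was 60 and their median width 946 bp, against 59 and 935 bp for the list cut in this way. The windows then held 12 (PAX5), 3 (EBF1), 3 (IKZF1), 2 (IKZF3), 5 (SPI1) and 5 (POU2AF1) peaks, while SPIB and POU2F2 held 9 and 7. The minimum height of 26 left 81 of the 112 peaks (72.3%), against 79.9% of the list, with 20 of 32 at PAX5 and 9 of 22 at EBF1. The median height was then 41 and the median width 684 bp, against 47 and 744 bp for the list. The clustered share was 76.8% with stitching at 5 kb and 93.8% at 25 kb, against 50.8% and 73.7% of the list. Against the windows' own chromosomes the ratio was 4.88. Leaving out 1 window in turn gave ratios of 6.01 (without SPIB) to 6.79 (without EBF1). Depth is unknown, so a stretch with no listed peak was not shown to lack KMT2D.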

Other observations

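Some tall peaks stood just outside the windows and entered the counts of the flanks only. They are the tallest among the first listed peaks beyond each window edge, picked after all these heights were seen. The rest had heights of 23 to 69. The first peak after the SPIB window, at 51014197 to 51015121 on chromosome 19, had a height of 158, against 79 for the tallest inside it, and lay 34.2 kb from the edge. The first peak before the POU2F2 window, at 42501000 to 42501963, had a height of 127 and lay 38.04 kb away. The first after the IKZF3 window, at 38083262 to 38084425 on chromosome 17, had a height of 109 and lay 13.3 kb away. At the other extreme, the EBF1 window had no listed peak for 131 kb before it and 54.7 kb after it, and the first peaks there had heights of 46 and 51, above 20 of the 22 inside.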
